A study of Homo sapiens with 6 samples.

Results

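The genes described here are 6 metallothionein genes, MT2A, MT1E, MT1F, MT1G, MT1M and MT1X, with MTF1, the zinc-sensing transcription factor that drives them, and SLC30A1, a zinc exporter that MTF1 also drives. They were picked by symbol with earlier results of these data known, and all 8 were found among the 28675 genes of the deposited count table. Messenger RNA was sequenced from MDA-MB-231, a cell line from a triple-negative breast cancer, in 3 libraries of the genotype LARP6 overexpression and 3 of the genotype No-load control. LARP6 is an RNA-binding protein, and the study set out to learn how it acts on RNA in these cells. Cells of both genotypes share the same line; how LARP6 was introduced, whether the cells were clones, and whether libraries came from separate cultures are not given in the labels, so p-values measure the spread between libraries, which may be technical.

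Metallothioneins are small proteins made up in large part of cysteines, whose sulphur atoms hold zinc, copper and cadmium. When free zinc rises, MTF1 binds metal response elements in the promoters of metallothionein genes and of SLC30A1, and the cell stores zinc in metallothioneins and pumps it out through SLC30A1. Most human metallothionein genes lie side by side in a single cluster, and MT2A is the most widely expressed of them.

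The libraries held 29409101 to 33387050 counts. LARP6 averaged 2108 ± 104 CPM in LARP6 libraries and 42.7 ± 1.85 CPM in control libraries (CPM is the read count scaled to the library's size, here after TMM scaling; SD, n = 3 each), a log2 fold change of 5.62 (SE 0.04; adjusted p = 4.73e-94 in edgeR). Of the 5 genes that mark this line, VIM, CD44, AXL, CAV1 and ANXA1, all were high, at 518.6 to 3248.3 CPM over all libraries. The 5 hormone receptor, HER2 and luminal genes summed to 71.2 to 74.5 CPM in LARP6 libraries and 74.7 to 78.4 CPM in control libraries. Over all libraries, the HER2 gene ERBB2 was at 56.0 CPM, GATA3 at 10.8 and CDH1 at 7.60, while the estrogen receptor gene ESR1 had 1 count and the progesterone receptor gene PGR had 26. The summed level of leukocyte markers was 4.42 to 5.06 CPM in LARP6 libraries and 4.20 to 4.94 CPM in control libraries. PTPRC, the gene common to leukocytes, had 68 counts in all, the macrophage gene CD68 had 784, and 4 of the 5 markers were in the table. Fibroblast markers, 4 of 4 in the table, summed to 2.86 to 3.25 CPM in LARP6 libraries and 2.16 to 4.14 CPM in control libraries. Endothelial markers, 3 of 4 in the table, summed to 8.01 to 9.74 CPM in LARP6 libraries and 7.96 to 10.7 CPM in control libraries.

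The metallothionein genes lie on chromosome 16 within 76.0 kb (chr16:56608199-56684196 in GENCODE v29 on GRCh38), each with 3 exons and a coding sequence of 61 codons, of which 20 code for cysteine. Coding sequences of the 6 genes were 88.5% to 95.1% identical over their 15 pairs. Those of the 3 metallothionein genes with the most reads are shown because their likeness bears on how reads can be told apart; cysteine codons are in capitals, and the stop codon is left out.
MT2A: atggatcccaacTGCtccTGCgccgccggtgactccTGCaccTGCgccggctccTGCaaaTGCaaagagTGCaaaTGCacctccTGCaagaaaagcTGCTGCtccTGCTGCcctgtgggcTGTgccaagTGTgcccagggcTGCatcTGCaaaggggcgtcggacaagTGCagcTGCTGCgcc
MT1E: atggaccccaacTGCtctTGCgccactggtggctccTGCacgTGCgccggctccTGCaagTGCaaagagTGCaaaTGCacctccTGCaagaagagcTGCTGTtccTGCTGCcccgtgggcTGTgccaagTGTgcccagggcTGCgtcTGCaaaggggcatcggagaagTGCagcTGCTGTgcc
MT1X: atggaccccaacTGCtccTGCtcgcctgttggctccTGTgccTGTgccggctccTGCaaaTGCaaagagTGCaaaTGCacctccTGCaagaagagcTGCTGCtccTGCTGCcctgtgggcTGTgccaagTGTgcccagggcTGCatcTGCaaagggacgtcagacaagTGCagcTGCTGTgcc

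Despite this likeness, the full mRNAs differ. For the 6 metallothionein genes, 3.59% (MT1F) to 45.1% (MT1X) of all 50-base stretches of the mRNA were also found in the transcript of another gene. For MT2A the share was 4.88% and for MT1E 5.34%. Over 150 bases, the length of 1 read, no stretch of MT2A, MT1E, MT1F, MT1G or MT1M was shared, while 5.65% of those of MT1X were found in the transcript of AC026461.1, a gene on the same strand that overlaps MT1X. AC026461.1 was not analysed here. How the authors' counting treated reads of both genes is not known, so the counts of MT1X are uncertain.

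The promoters of MT2A, MT1X and SLC30A1 are shown because they carry the letters that MTF1 recognises. They run from 250 bases before to 50 bases after the RefSeq start (GRCh38.p14), at chr16:56608334-56608633 on the plus strand for MT2A, chr16:56682220-56682519 on the plus strand for MT1X and chr1:211579112-211579411 on the minus strand for SLC30A1. Capitals mark matches on either strand to the core of the metal response element, TGCACNC or TGCGCNC, where N is any base.
MT2A: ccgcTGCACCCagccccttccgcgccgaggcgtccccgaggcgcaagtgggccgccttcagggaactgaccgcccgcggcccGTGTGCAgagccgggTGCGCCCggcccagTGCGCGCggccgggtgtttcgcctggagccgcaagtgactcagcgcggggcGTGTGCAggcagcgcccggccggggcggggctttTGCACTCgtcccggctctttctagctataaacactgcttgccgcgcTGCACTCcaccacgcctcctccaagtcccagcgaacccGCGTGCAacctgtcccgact
MT1X: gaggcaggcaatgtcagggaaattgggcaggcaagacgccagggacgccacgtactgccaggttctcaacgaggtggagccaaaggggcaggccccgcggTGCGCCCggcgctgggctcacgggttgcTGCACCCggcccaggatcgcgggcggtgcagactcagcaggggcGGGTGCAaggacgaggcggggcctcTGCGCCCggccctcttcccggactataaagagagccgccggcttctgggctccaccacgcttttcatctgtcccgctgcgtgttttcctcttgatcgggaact
SLC30A1: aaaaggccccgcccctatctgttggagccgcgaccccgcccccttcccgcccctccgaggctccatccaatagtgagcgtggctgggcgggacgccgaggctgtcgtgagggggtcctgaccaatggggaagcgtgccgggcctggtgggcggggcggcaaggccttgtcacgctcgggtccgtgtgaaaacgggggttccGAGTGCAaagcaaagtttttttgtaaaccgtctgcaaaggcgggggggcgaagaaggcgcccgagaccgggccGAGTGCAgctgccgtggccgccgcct

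MT2A held 8 matches, 5 forward and 3 reverse, MT1X held 4, 3 forward and 1 reverse, and SLC30A1 held 2, both reverse. None of the matches overlapped each other or a match to another motif searched. Among all 35116 RefSeq promoters of this length, 29.6% held at least 1 match, 8.60% at least 2, 0.601% at least 4 and 0.0199% at least 8. The promoter of MTF1 held none. TATAAA, the TATA box, was found on either strand in MT2A and MT1X and in 11.5% of all promoters, and TGACTCA, the AP-1 site, in MT2A and in 4.95% of all. Promoters were matched for 4 of the 8 genes. The SLC30A1 window lies wholly upstream of that gene's start in GENCODE v29 (chr1:211578742, minus strand). Its 2 matches therefore depend on the start used.

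MT2A was slightly lower in LARP6 libraries, and it was the only one of the 7 genes tested that passed the threshold, an adjusted p below 0.05 in edgeR's quasi-likelihood test over 16226 genes. Of the 7, 1 was called lower and 0 higher, against 3.6% of all tested genes called lower and 6.03% called in either direction. MTF1, SLC30A1 and 4 metallothionein genes, MT1E, MT1X, MT1F and MT1M, did not pass, and MT1G had too few reads to be tested. All 7 fold changes were negative, with a median log2 fold change of -0.11, against a median of 0.00 and 48.8% negative among all genes tested. The 5 metallothionein genes among the 7 have short mRNAs, however. Of tested protein-coding genes with a transcript under 1000 bases, 74.5% were negative. Of those that also had a GC content of at least 55%, 79.3% were negative. At an unadjusted p below 0.05, 3 of the 7 were lower (MT2A, MT1E and MT1X), against 10.3% of all genes tested. That share was not computed for short transcripts. Because the genes were chosen with earlier results of these data known, these counts are descriptions and no test of the set.

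**Figure D1:**
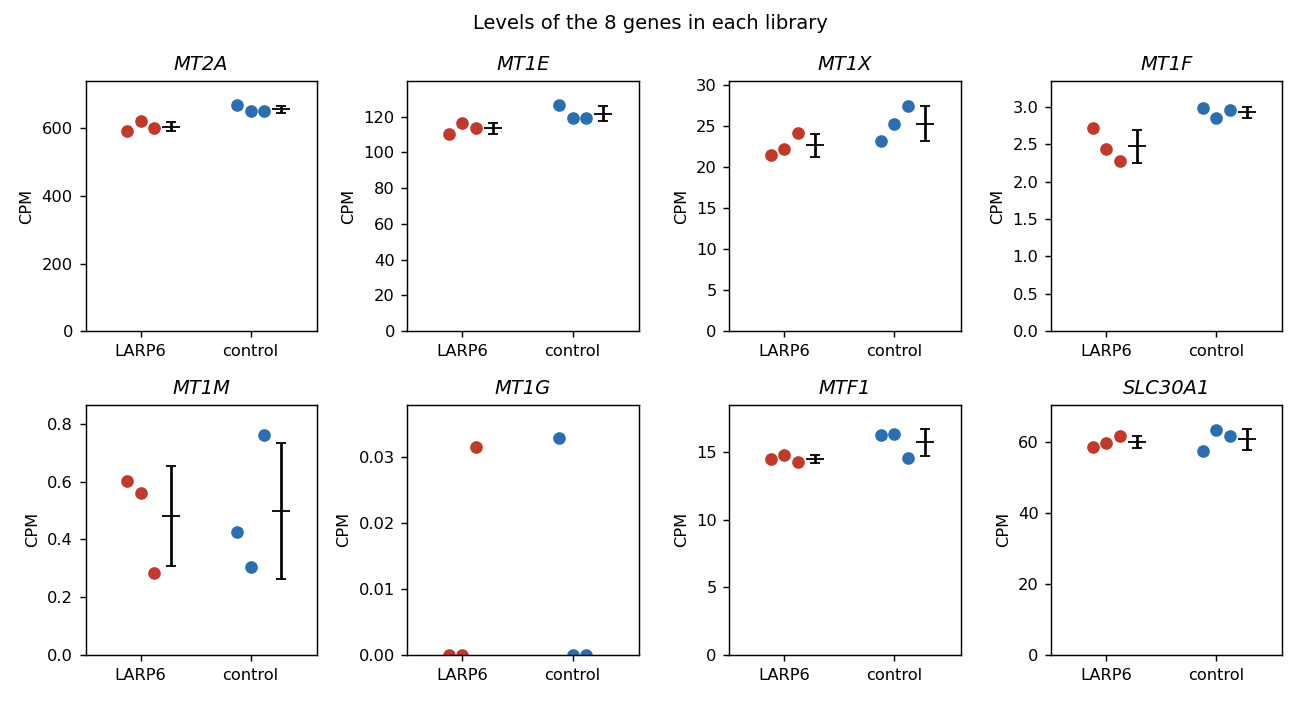
Level of each of the 8 genes in CPM, on a linear axis from 0, in the 3 LARP6 libraries (red, left) and the 3 control libraries (blue, right); points are libraries and black bars are the mean ± SD, left out for MT1G. LARP6 libraries lie below all control libraries for MT2A, MT1E and MT1F, and the groups overlap for the others.

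MT2A, the main metallothionein of these cells, had 592.3, 620.2 and 602.1 CPM in LARP6 libraries, against 668.5, 650.2 and 651.6 CPM in control libraries. Every LARP6 library was below every control library. The means were 605 ± 14.1 CPM in LARP6 libraries and 657 ± 10.2 CPM in control libraries (SD, n = 3 each), a difference of -7.90% (95% interval -11.1 to -4.60) and a log2 fold change of -0.12 (SE 0.03; adjusted p = 0.000728 in edgeR). The gap between the group means was larger than the spread of either group. With offsets for GC content and transcript length MT2A lost its call (0 of the 7 genes were called lower there, against 2.61% of all tested genes), at a log2 fold change of -0.04 (SE 0.02; adjusted p = 0.445 in edgeR), as it did on log2 of the deposited FPKM + 1, at -0.09 (limma adjusted p = 0.139). It was called without any 1 of the 6 libraries, at -0.14 to -0.10.

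MT1E, the second most abundant, had 110.0, 116.6 and 113.4 CPM in LARP6 libraries, against 126.3, 118.9 and 119.4 CPM in control libraries. The groups did not overlap, but the highest LARP6 library was close to the lowest control library. Its means were 113 ± 3.30 CPM in LARP6 libraries and 122 ± 4.16 CPM in control libraries, a log2 fold change of -0.10 (SE 0.03) that did not pass the threshold (edgeR adjusted p = 0.0524). Upper-quartile scaling, at -0.10, carried MT1E past it (edgeR adjusted p = 0.0469), as did a block for replicate number, at -0.10 (0.0322). MT1E was further from the threshold without control replicate 1, at -0.07 (edgeR adjusted p = 0.291), or LARP6 replicate 1, at -0.08 (0.305). The same held with scaling by library size only (edgeR adjusted p = 0.185) and with DESeq2 (DESeq2 adjusted p = 0.108).

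MT1X had 21.51, 22.28 and 24.21 CPM in LARP6 libraries, against 23.21, 25.28 and 27.43 CPM in control libraries. The highest LARP6 library was above the lowest control library, so the groups overlapped. The log2 fold change was -0.16 (SE 0.06; adjusted p = 0.134 in edgeR). Without control replicate 1, the lowest control, it was -0.22 and passed (edgeR adjusted p = 0.0456), and without control replicate 3, the highest control, it was -0.09 (edgeR adjusted p = 0.557).

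MT1F had 2.71, 2.43 and 2.27 CPM in LARP6 libraries, against 2.99, 2.85 and 2.96 CPM in control libraries. All LARP6 libraries were below all control libraries, at a level where counting error is large: the log2 fold change was -0.25 (SE 0.17), with an interval on the percent scale of -33.2 to 6.36, and did not pass (edgeR adjusted p = 0.457). MT2A, MT1E and MT1F were thus the 3 of 7 whose CPM did not overlap, all of them lower. Of all tested genes, 11.7% were without overlap and lower and 22.3% were without overlap in either direction. The mRNAs of these 3 genes are under 1000 bases with at least 55% GC. The share without overlap was not computed for genes of that kind, of which 15.9% were called lower. As the genes were chosen with earlier results known, the count is a description.

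MT1M had 18, 17 and 9 counts in LARP6 libraries, against 13, 9 and 25 counts in control libraries. The groups overlapped across their range, with a log2 fold change of -0.07 (SE 0.38, 95% interval -0.83 to 0.69; adjusted p = 0.947 in edgeR). A change of up to about that size in either direction was not detectable at this depth. MT1G had 0, 0 and 1 count in LARP6 libraries and 1, 0 and 0 in control libraries, all under a limit of 3 counts per library, which stands for 0.0899 to 0.102 CPM.

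Per length, the 7 tested genes had 1 order in both groups: MT2A, MT1E, MT1X, SLC30A1, MTF1, MT1F and MT1M. On the authors' FPKM scale, a level scaled by gene length and library size, MT2A averaged 589 ± 14.6 FPKM in LARP6 libraries and 628 ± 12.5 FPKM in control libraries (SD, n = 3 each). MT1E averaged 95.8 ± 2.95 FPKM in LARP6 libraries and 101 ± 3.92 FPKM in control libraries. Next came MT1X, with 11.7 ± 0.738 FPKM in LARP6 libraries and 12.8 ± 1.01 FPKM in control libraries, and SLC30A1, with 9.06 ± 0.258 FPKM in LARP6 libraries and 9.03 ± 0.412 FPKM in control libraries. By mean FPKM over all libraries MT2A ranked 43 among 16346 protein-coding genes, MT1E 390, MT1X 3260, SLC30A1 4039, MTF1 9021, MT1F 9652 and MT1M 10475. These ranks depend on the length used. The deposited FPKM imply 1956 bases for MT1X and 2099 for MT1F, longer than their GENCODE mRNAs of 450 and 690 bases. For MT1M they imply 581 bases, shorter than its mRNA of 829. MTF1 averaged 1.62 ± 0.0306 FPKM in LARP6 libraries and 1.72 ± 0.115 FPKM in control libraries, and MT1F 1.19 ± 0.106 FPKM in LARP6 libraries and 1.38 ± 0.0404 FPKM in control libraries. MT1M, at 0.837 ± 0.303 FPKM in LARP6 libraries and 0.850 ± 0.404 FPKM in control libraries, was below MT1F in both groups, without overlap of their libraries within a group. The order of MTF1 and MT1F depends on the length used: with CPM per kilobase of the GENCODE mRNA, MT1F was above MTF1, at 3.58 and 1.82 in LARP6 libraries and at 4.25 and 1.97 in control libraries.

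Summed over the 6 genes, metallothionein mRNA was 727.1, 762.0 and 742.2 CPM in LARP6 libraries, against 821.5, 797.6 and 802.1 CPM in control libraries. No LARP6 library reached the lowest control library, and the means, 744 ± 17.5 CPM in LARP6 libraries and 807 ± 12.7 CPM in control libraries, differed by -7.84%. MT2A made up most of this sum in each library, so the sum repeats MT2A and is no separate evidence. Its share was 81.3 ± 0.183% in LARP6 libraries and 81.4 ± 0.145% in control libraries, and that of MT1E was 15.2 ± 0.0941% in LARP6 libraries and 15.1 ± 0.280% in control libraries. The share of MT2A thus differed by less than the SD of either group. The share of MT1E differed by less than the SD of control libraries but by more than that of LARP6 libraries. For every 1000 MT2A counts there were 187 ± 1.44 MT1E counts in LARP6 libraries and 185 ± 3.44 in control libraries. In bulk RNA, fewer cells with a high level and less RNA in every cell cannot be told apart.

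MTF1 (chr1:37809567-37859620, minus strand) had 14.47, 14.82 and 14.25 CPM in LARP6 libraries, against 16.25, 16.34 and 14.60 CPM in control libraries. Of the control libraries, 2 were above all LARP6 libraries and 1 was among them. Its log2 fold change was -0.11 (SE 0.08, 95% interval -0.27 to 0.04) and did not pass (edgeR adjusted p = 0.451).

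SLC30A1 (chr1:211571568-211578742, minus strand), the exporter of zinc at the cell surface, had 58.66, 59.69 and 61.76 CPM in LARP6 libraries, against 57.48, 63.34 and 61.65 CPM in control libraries. The LARP6 libraries lay inside the range of the control libraries. The means were 60.0 ± 1.58 CPM in LARP6 libraries and 60.8 ± 3.02 CPM in control libraries, with a log2 fold change of -0.02 (SE 0.04, 95% interval -0.10 to 0.07; adjusted p = 0.868 in edgeR). This interval takes in changes of -6.86% to 4.65%. The direction was not settled: it was 0.01 with scaling by library size only, and -0.11 with offsets for GC content and length (SE 0.04; adjusted p = 0.182 in edgeR). Without the offsets, SLC30A1 thus did not show the MT2A difference on counts. With them, MT2A was at -0.04 (SE 0.02, edgeR adjusted p = 0.445), nearer to 0 than SLC30A1. The difference between the 2 genes was not tested.

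Fold changes moved with transcript length among the tested protein-coding genes. For GC content, only a cut at 55% within transcripts under 1000 bases was looked at. The mRNAs of the 6 metallothionein genes are 406 to 829 bases long, while those of SLC30A1 and MTF1 have 5474 and 7972 bases. Of the 13184 protein-coding genes tested with a known length, the 576 with a transcript under 1000 bases had a median log2 fold change of -0.06, and 10.9% were called lower, with 1 gene called higher. Among the 276 of these with a GC content of at least 55%, the median was -0.08 and 15.9% were called lower. MT2A, with 63.0% GC, is of this kind, and its log2 fold change was -0.12. Genes with transcripts of 10000 bases or more had a median of 0.08. With offsets for both properties the log2 fold changes were -0.04 for MT2A, -0.05 for MT1E, -0.10 for MT1X, -0.17 for MT1F, -0.16 for MTF1 and -0.11 for SLC30A1, none past the threshold (edgeR adjusted p 0.182 to 0.690). The part of RNA quality or library preparation in these values was not tested.

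**Figure D2:**
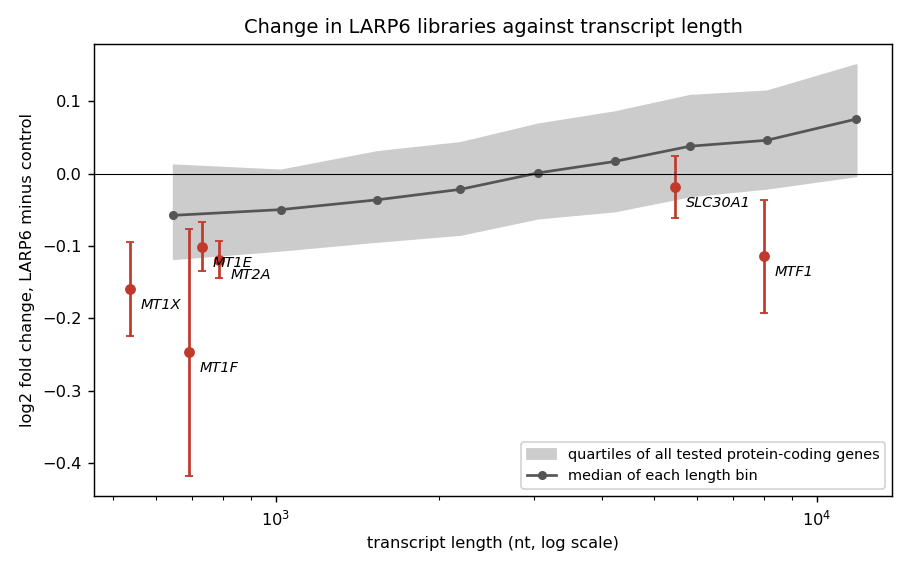
Log2 fold change (LARP6 minus control) against the length of the longest protein-coding transcript in bases on a log axis, for the median and quartiles of tested protein-coding genes in 9 bins of length (grey) and for 6 of the genes (red, ± SE). The median of all genes goes up with length, at -0.06 in the shortest bin and 0.08 in the longest, and MT2A, MT1E, MT1X and MT1F lie at the short end.

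**Figure D3:**
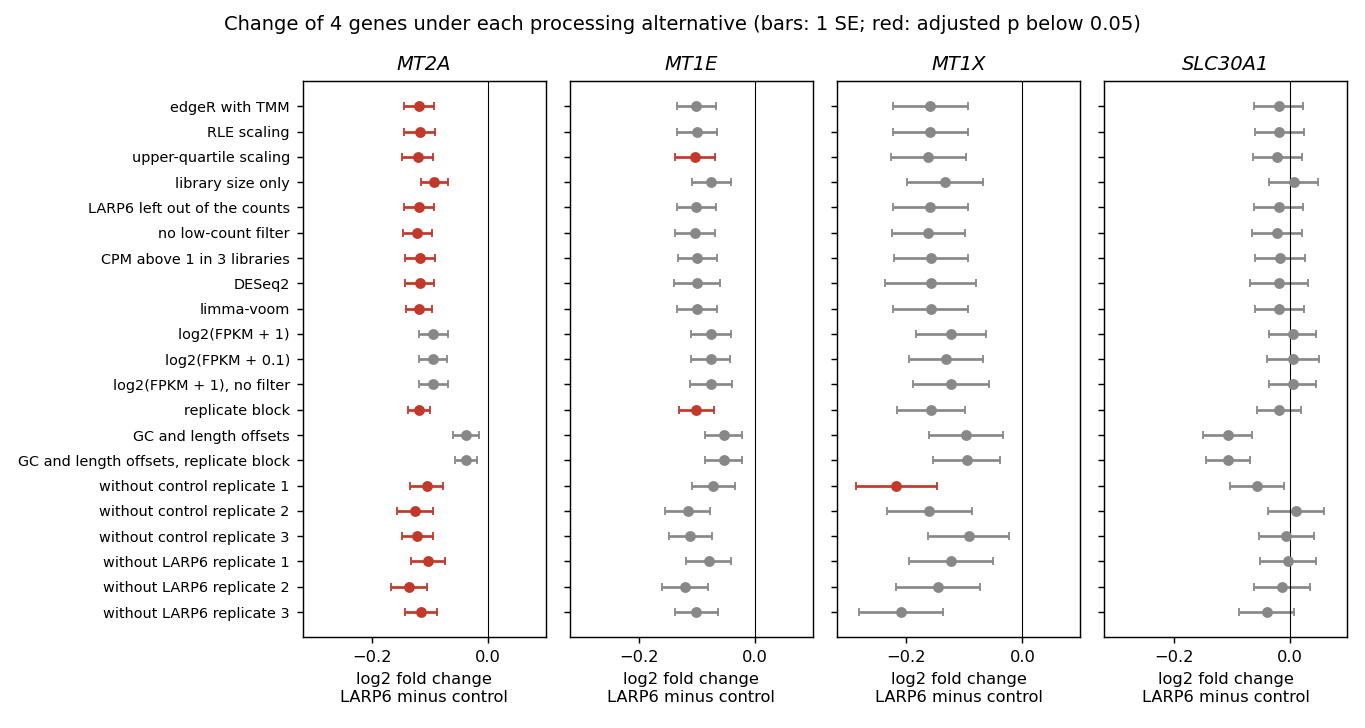
Log2 fold change (LARP6 minus control, ± SE) of MT2A, MT1E, MT1X and SLC30A1 under each processing alternative, in red where the adjusted p was below 0.05. MT2A was below 0 in every setting plotted, and not past the threshold with the deposited FPKM or with GC and length offsets.

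The cluster's surroundings did not share a call. The nearest tested protein-coding genes, 2 on each side, had log2 fold changes of 0.05 for OGFOD1 (edgeR adjusted p = 0.603), 0.08 for BBS2 (0.794), -0.01 for NUP93 (0.939) and -0.02 for HERPUD1 (0.885).

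Over the 6 libraries, log2 CPM of MT1E followed that of MT2A with a Pearson r of 0.956, MTF1 with 0.767, MT1F with 0.737 and MT1X with 0.545. For SLC30A1 the value was 0.03 and for MT1M 0.02. These are descriptions over 6 libraries that also differ by group, and the genes share the libraries' depth and scaling. Outside the 8 genes, the 5 whose level was most like that of MT2A were CCDC124 (r = 0.997), VPS28 (0.994), ERCC1 (0.993), H2BC12 (0.992) and ACYP2 (0.990), out of 10571 protein-coding genes with a mean of at least 5 CPM. An r above 0.9 with MT2A was reached by 2.68% of them, or 283 genes. Of the 5, CCDC124 (log2 fold change -0.13, edgeR adjusted p = 0.00656) and the histone gene H2BC12 (-0.13, edgeR adjusted p = 0.0242) were also called lower. The 5 most like SLC30A1 were CC2D1B (r = 0.982), BEX2 (0.981), ZFAND3 (0.969), AIFM1 (0.969) and TWNK (0.966), none of them called, and an r above 0.9 with SLC30A1 was reached by 0.596% of the genes.

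These 8 genes were set beside 8 lists of other genes. Some lists were of metallothioneins, zinc transporters, copper genes and iron genes. The rest were of genes that heavy metals and oxidants or glucocorticoids induce, and of partners and regulators of the MTF1 response. Of 69 list genes tested, 2 were called higher and 8 lower, against 2.43% of all tested genes called higher and 3.6% called lower. On the deposited FPKM with log2(FPKM + 1), 3 of these 10 calls were kept in limma (CEBPD, ERRFI1 and FTH1), and 0 without a filter on low values. Among the other metallothioneins, 7 of 14 were in the table and only MT1A had reads enough for the test, with 1.89 ± 0.431 CPM in LARP6 libraries, 2.08 ± 0.303 CPM in control libraries and a log2 fold change of -0.14 (SE 0.20; adjusted p = 0.763 in edgeR). The brain metallothionein MT3 had 1 count in all 6 libraries.

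Of the 19 tested genes of the SLC30 and SLC39 lists, 1 was called, near the 6.03% of all tested genes called in either direction. None of the 8 tested genes of the SLC30 list, which leaves out SLC30A1, passed, with a median log2 fold change of 0.04. SLC30A6 was at 0.09 (SE 0.06, edgeR adjusted p = 0.428) and SLC30A4 at 0.13 (SE 0.12, edgeR adjusted p = 0.599). Among the 11 tested importers of the SLC39 family 1 was lower and 0 higher, with a median of -0.03. SLC39A1, which brings zinc in through the plasma membrane, had 291 ± 14.4 CPM in LARP6 libraries and 311 ± 1.99 CPM in control libraries, a log2 fold change of -0.10 (SE 0.03; adjusted p = 0.0167 in edgeR). It lost the call without control replicate 2 (edgeR adjusted p = 0.0928), LARP6 replicate 1 (0.106) or LARP6 replicate 2 (0.316), and with GC and length offsets (0.140), scaling by library size only (0.0946), DESeq2 (0.0539) and the 3 FPKM settings (limma adjusted p 0.325 to 0.559).

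**Figure D4:**
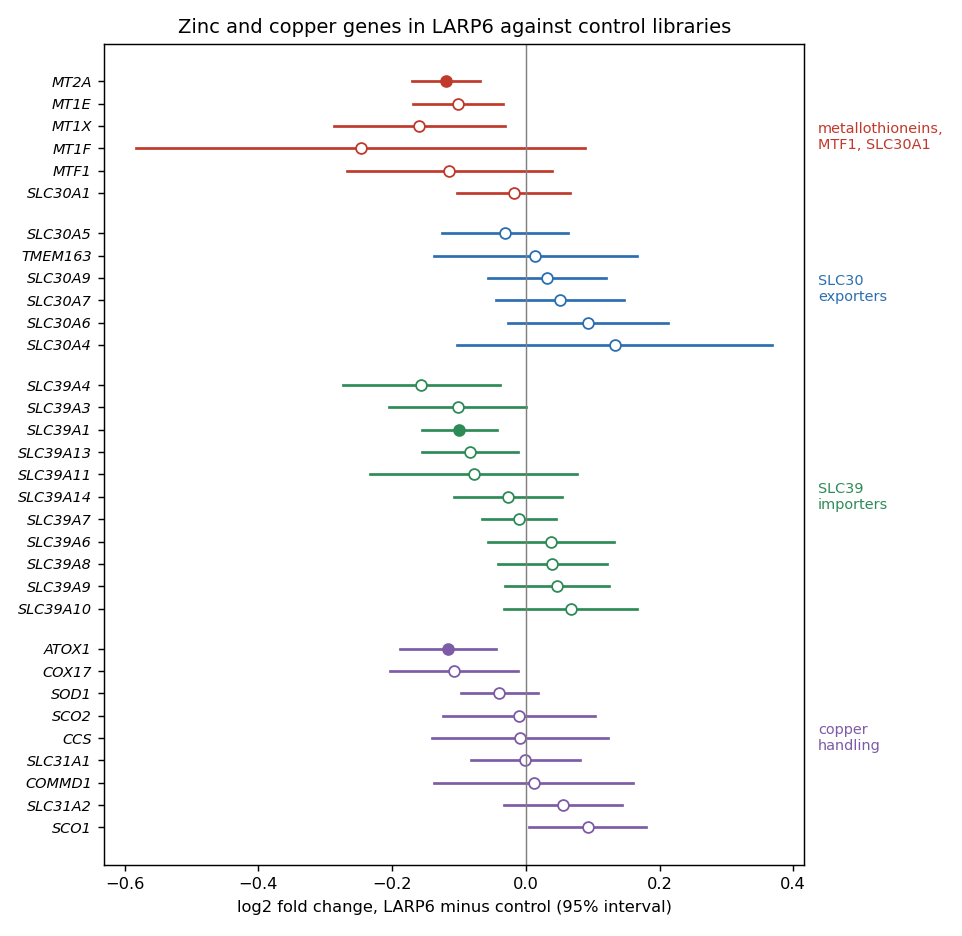
Log2 fold change (LARP6 minus control) with its 95% interval for 6 of the 8 genes and for genes of the SLC30, SLC39 and copper lists with at least 5 CPM in control libraries; filled points passed the threshold. MT2A, SLC39A1 and ATOX1 are the filled points, at -0.12, -0.10 and -0.12.

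Copper genes gave a similar count: of 11 tested, 1 was lower and 0 higher, with a median log2 fold change of -0.01. Among all tested genes, 3.6% were called lower. The call was ATOX1, a copper chaperone of the cytosol, with 89.6 ± 3.16 CPM in LARP6 libraries and 97.2 ± 1.36 CPM in control libraries and a log2 fold change of -0.12 (SE 0.04; adjusted p = 0.0328 in edgeR). It was lost without control replicate 1 (edgeR adjusted p = 0.0566), 2 (0.144) or 3 (0.0541) and without LARP6 replicate 1 (0.257) or 3 (0.0561), and with scaling by library size only (0.123), DESeq2 (0.0643) and the 3 FPKM settings (limma adjusted p 0.253 to 0.473). With GC and length offsets it was called, at -0.16 (edgeR adjusted p = 0.000892).

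Of 12 genes that heavy metals and oxidants induce, 1 was higher and 0 lower, with a median of -0.01. Among all tested genes, 2.43% were called higher. SLC7A11, the cystine importer that feeds glutathione synthesis, had 20.9 ± 1.54 CPM in LARP6 libraries and 15.1 ± 1.85 CPM in control libraries. Its log2 fold change was 0.47 (SE 0.07, edgeR adjusted p = 1.06e-06). The call was lost with the 3 FPKM settings. HMOX1, heme oxygenase and a standard marker of cadmium and oxidant stress, had 27.53 ± 0.467 CPM in LARP6 libraries and 27.96 ± 0.622 CPM in control libraries (edgeR adjusted p = 0.885).

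Glucocorticoids induce MT2A, so 10 genes they induce were looked at, of which 9 were tested. There 1 was higher and 2 were lower, with a median log2 fold change of -0.05. Among all tested genes, 2.43% were called higher and 3.6% lower. CEBPD, a transcription factor, had 32.6 ± 1.76 CPM in LARP6 libraries and 43.0 ± 1.33 CPM in control libraries (log2 fold change -0.40, SE 0.05; adjusted p = 9.11e-10 in edgeR). NFKBIA, the inhibitor of NF-kappa-B, had 108 ± 3.61 CPM in LARP6 libraries and 123 ± 3.56 CPM in control libraries (-0.18, SE 0.03; adjusted p = 4.98e-05 in edgeR). ERRFI1, a feedback inhibitor of EGFR, had 218 ± 1.297 CPM in LARP6 libraries and 191 ± 3.47 CPM in control libraries (0.18, SE 0.03; adjusted p = 8.80e-07 in edgeR). The call of NFKBIA was lost with the 3 FPKM settings, and those of CEBPD and ERRFI1 with log2(FPKM + 1) unfiltered. The glucocorticoid receptor gene itself, NR3C1, was at 0.09 and not called (edgeR adjusted p = 0.178).

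Among 9 partners and regulators of the MTF1 response, 1 was lower and 0 higher, with a median of 0.04. Of all tested genes, 3.6% were called lower. USF2, a factor that binds E-boxes, had 176 ± 4.67 CPM in LARP6 libraries and 189 ± 2.38 CPM in control libraries (log2 fold change -0.10, SE 0.03; adjusted p = 0.0296 in edgeR). It lost the call without control replicate 1 (edgeR adjusted p = 0.0507), 2 (0.0762) or 3 (0.124), without LARP6 replicate 1 (0.239), and with GC and length offsets (0.582), scaling by library size only (0.128) and the 3 FPKM settings (limma adjusted p 0.263 to 0.477).

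Of 8 iron genes tested, 3 were lower and 0 higher, with a median log2 fold change of -0.12. Among all tested genes, 3.6% were called lower. The list was chosen with earlier results of these data known. FTH1, the ferritin heavy chain that stores iron, had 3891 ± 75.7 CPM in LARP6 libraries and 4384 ± 65.0 CPM in control libraries (-0.17, SE 0.02; adjusted p = 3.64e-08 in edgeR). ACO1, the cytosolic aconitase that doubles as an iron sensor, had 152 ± 4.49 CPM in LARP6 libraries and 172 ± 6.37 CPM in control libraries (-0.18, SE 0.03; adjusted p = 1.26e-05 in edgeR). TFRC, the transferrin receptor that takes up iron, had 187 ± 9.60 CPM in LARP6 libraries and 204 ± 8.75 CPM in control libraries (-0.12, SE 0.03; adjusted p = 0.0102 in edgeR). TFRC was not called without control replicate 1 (edgeR adjusted p = 0.0623) or 2 (0.115) or without LARP6 replicate 2 (0.133) or 3 (0.0763), or with scaling by library size only (0.187), DESeq2 (0.0512) or the 3 FPKM settings (limma adjusted p 0.348 to 0.582). With GC and length offsets it was called, at -0.18 (edgeR adjusted p = 2.65e-06). The call of ACO1 was lost with the 3 FPKM settings, and that of FTH1 with log2(FPKM + 1) unfiltered.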

How the data were processed

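For 6 libraries, 3 per group by the labels, the authors deposited whole read counts of each gene and, in a second table, FPKM of each gene. Per the labels' protocols, a stranded mRNA kit was sequenced as paired reads of 150 bases; the submitters' processing notes name HISAT2, DESeq2 and GRCh38. In the sources used here, the program that counted reads, its strand setting and its annotation are not given. For testing, these deposited counts went into edgeR 4.0.16 (R 4.3.3): filterByExpr, TMM scaling and the robust quasi-likelihood test over all 16226 genes kept, with Benjamini-Hochberg adjustment and calls below 0.05. CPM was computed here from counts, and intervals of 95% come from the same fit. Libraries held 29409101 to 33387050 counts, and the common coefficient of variation was 3.23%.

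Alternatives used DESeq2 1.42.0, limma 3.58.1 on log2(FPKM + 1), log2(FPKM + 0.1) and voom, other scalings and filters, a replicate block, each library left out, and offsets for GC content and length of the longest protein-coding GENCODE v29 transcript, as smooth trends per library (mgcv 1.9.3). Lengths given for metallothionein mRNAs are of their longest transcript with 3 exons. GENCODE v29 (GRCh38) was used for coordinates and transcripts, and RefSeq (GRCh38.p14) for promoters; whether the authors' annotation was the same release is not known. The edgeR, DESeq2 and limma steps were tested on simulated data. Any 2 libraries differed by more than sampling noise (chi-square per gene 2.06 to 3.62 within groups and 7.39 to 11.0 between groups), so none was a copy of another's reads. These values cannot tell libraries of separate cultures from libraries made from the same culture or RNA.

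The genes and lists were chosen with earlier results of these data known. All 8 genes were named, with up to 4 called genes of the smallest p in each list, or 2 tested genes where none was called, and the 5 genes most alike. HMOX1, NR3C1 and MT3 were added after their values were seen.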

Additional observations from a re-analysis of the deposited data

How the results depend on the processing

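The count of 1 gene of the 8 lower became 2 with upper-quartile scaling (MT2A and MT1E) and 0 with all 3 log2 FPKM settings and with GC and length offsets, with or without the block; it was 1 to 2 with each library left out. MT2A was at -0.0942, -0.0943 and -0.0942 with log2(FPKM + 1), log2(FPKM + 0.1) and log2(FPKM + 1) unfiltered, at -0.0377 with the offsets and at -0.0380 with offsets and block, and -0.1358 to -0.1039 with each library left out. MT1E passed at -0.1037 with upper-quartile scaling. MT1X was -0.2174 to -0.0927 with each library left out. MT1M turned to 0.0037 with log2(FPKM + 0.1), 0.0060 with the offsets and 0.0209 with offsets and block, and was -0.3183 to 0.3857 with each library left out. SLC30A1 turned to 0.0075 with library size only and to 0.0053, 0.0059 and 0.0053 with the 3 FPKM settings, and was -0.0567 to 0.0109 with each library left out. MT1A was -0.3060 to 0.0148 with each library left out, above 0 without LARP6 replicate 1. By FPKM the share of MT2A in LARP6 libraries was 84.3% in place of 81.3%. Among all genes, 395 were called higher, against 687 with library size only, 211 with DESeq2, 37, 38 and 1 with FPKM, 169 with offsets, 187 with offsets and block, 148 at a threshold of 0.01 and 175 to 398 with each library left out (177 without LARP6 replicate 1 and 175 without LARP6 replicate 2). Called lower were 584, against 303 with library size only, 53, 54 and 2 with FPKM, 295 at 0.01 and 281 to 642 with each library left out (386 without control replicate 2, 282 without LARP6 replicate 1 and 281 without LARP6 replicate 2). In the 8 lists, 2 were called higher, against 5 with library size only and 1, 1 and 0 with FPKM. Called lower there were 8, against 4 with library size only, 5 with DESeq2, 2, 2 and 0 with FPKM, 4 at 0.01 and 4 to 8 with each library left out. The cause of these shifts was not tested. The labels do not say whether replicate numbers pair the libraries. Deviations of same-numbered libraries from their group means correlated at 0.035, 0.0073 and 0.0496, all under 0.1. Those of differently numbered libraries correlated at -0.063 to 0.029. With 3 libraries per group, these values cannot settle whether the libraries are paired. With the replicate block, 2 of the 8 genes were lower, MT2A (-0.1189, SE 0.0197) and MT1E (-0.1012, edgeR adjusted p = 0.0322). Among all genes, 518 were called higher and 827 lower with the block. Depth limits MT1M, MT1F and MT1G, whose counts were low in each library.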
